A study of Mus musculus with 10 samples.

Results

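Transcripts of 8 genes of myeloid cells were followed here as a readout of how much RNA of other cells remained in preparations of mouse B cells: Lyz2, Lyz1, Cd14, Csf1r, Fcer1g, Tyrobp, S100a8 and S100a9. They were chosen by name, as 8 rows of the 17658 in the table, and all 8 were found and passed the filter for testing (an average of 1 FPKM or more across all libraries, met by 10225 genes). The series sequenced mRNA from C57BL/6 mice aged 10 weeks, either Nr4a1+/+ (wild type) or Nr4a1-/- (a knockout of the orphan nuclear receptor Nur77). B cells of spleen and lymph node were enriched magnetically by negative selection, in which antibodies hold back other cells and B cells pass through untouched. A single unstimulated library of each genotype received no agent (both lettered A), and 4 libraries of each genotype (A to D) came from cells given 10 µg/mL anti-IgM for 2 hours, which crosslinks the B cell antigen receptor. The labels do not say whether the letters stand for separate mice or whether animals were pooled, so p-values measure the spread between these libraries, which may be technical.

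The members have different roles. Lyz2 and Lyz1 encode lysozymes, which cut bacterial cell walls, and that of Lyz2 is made in quantity by macrophages and granulocytes. Cd14 is a coreceptor that hands lipopolysaccharide to Toll-like receptor 4, and Csf1r is the receptor for macrophage colony-stimulating factor, on which most tissue macrophages depend. Fcer1g (the Fc receptor gamma chain) and Tyrobp (DAP12) are short signalling adaptors that carry activation motifs for receptors without motifs of their own. S100a8 and S100a9 form calprotectin, a calcium- and metal-binding complex that is abundant in neutrophils.

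Nr4a1 itself did not separate the genotypes: it stood at 126 FPKM in both unstimulated libraries, from 744 to 856 FPKM in the stimulated wild-type libraries and from 660 to 760 FPKM in those labelled Nr4a1-/-, so the 2 groups overlapped and genotypes below are those of the labels. FPKM are fragments scaled to transcript length and to the mapped fragments of the library, so levels of different genes can be compared per length. Relative depth, read from low genes, ran from 0.914 to 1.06 times a common value, and the FPKM summed to between 557214 and 674961 per library. The B cell receptor gene Cd79a was listed at 1112 and 1229 FPKM without stimulation and at 469 to 529 FPKM after it, and all 13 of 13 B cell genes found were above 0 in every library. The 8 myeloid transcripts together made up 0.0157% to 0.0359% of the summed FPKM. In bulk RNA, fewer cells of a type and less RNA per cell cannot be told apart.

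**Figure D1:**
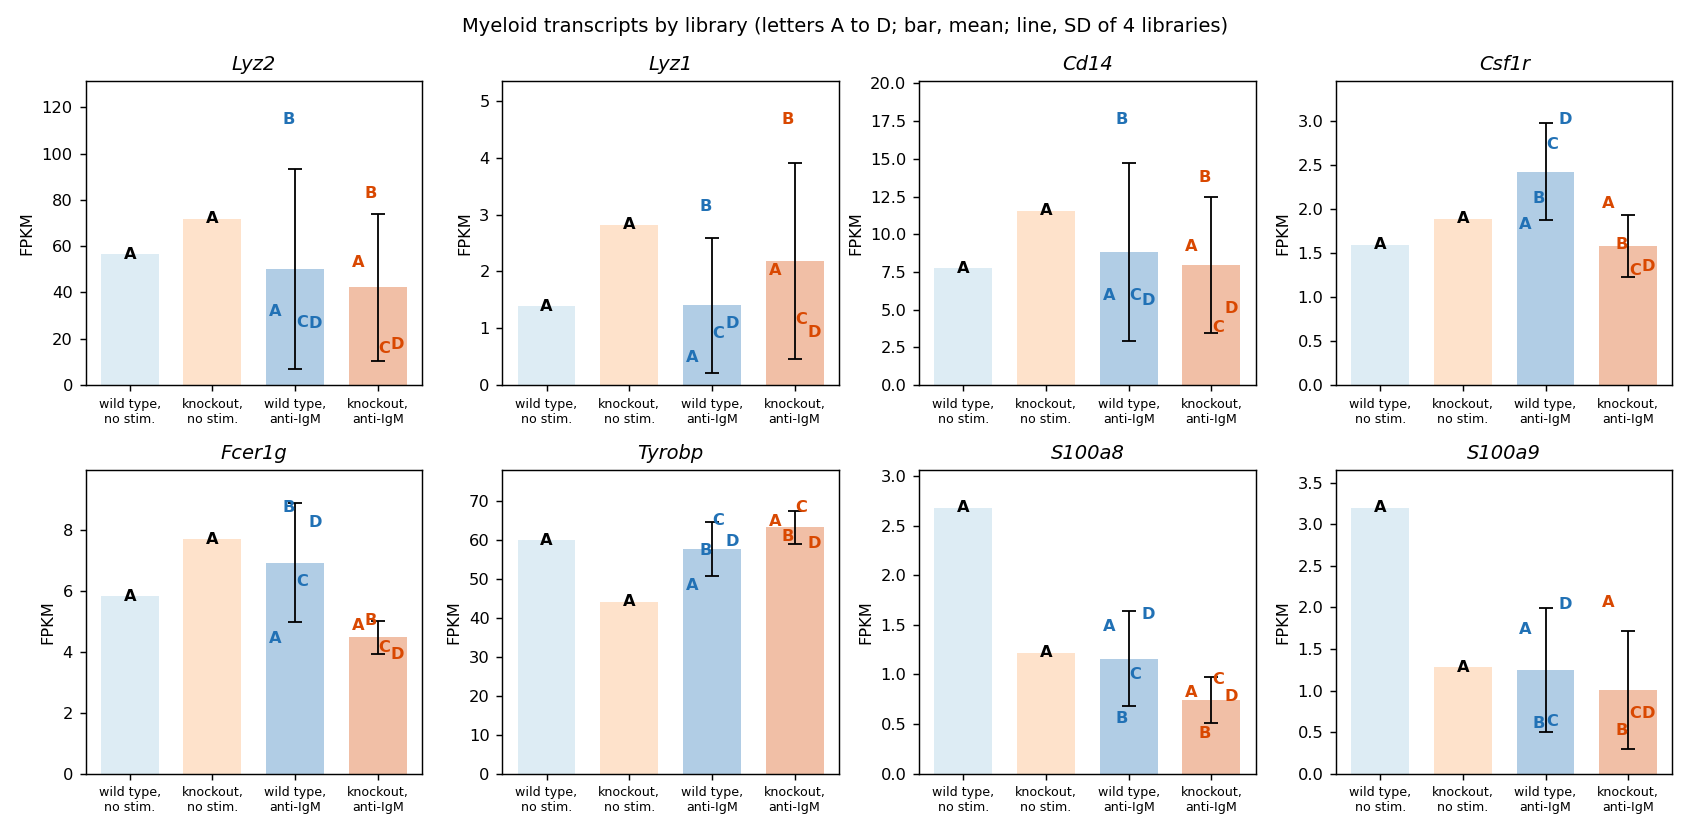
FPKM of each myeloid transcript (vertical axis, linear, from 0) in the 10 libraries, drawn as their letters, by genotype and stimulation. Bars are group means and lines the SD of 4 libraries, with 1 library in each unstimulated group; Lyz2 ranged from 15.8 to 115 FPKM after anti-IgM, while Tyrobp stayed between 48.4 and 68.4.

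Over the 10 libraries the order of the levels was Tyrobp with 58.8 ± 7.45 FPKM (SD, n = 10), Lyz2 with 49.8 ± 32.4, Cd14 with 8.63 ± 4.43, Fcer1g with 5.91 ± 1.76, Csf1r with 1.95 ± 0.563, Lyz1 with 1.86 ± 1.31, S100a9 with 1.35 ± 0.887 and S100a8 with 1.15 ± 0.655. Neighbours in this order that lay apart by more than the larger of their SDs were Lyz2 and Cd14, and Fcer1g and Csf1r. Tyrobp and Lyz2, Cd14 and Fcer1g, and the 4 lowest genes among themselves did not. Within single libraries Lyz2 was above Cd14 in all 10, by 3.44 to 7.27 times, and Fcer1g was above Csf1r in all 10, by 2.31 to 4.11 times. The members thus fell into an abundant pair, an intermediate pair and 4 genes near 1 or 2 FPKM.

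Lyz2 and Lyz1 lie beside each other on chromosome 10 (GRCm38.p6, the assembly of the reference annotation; Lyz2 at chr10:117277541-117282272 and Lyz1 at chr10:117287795-117292868, both on the minus strand). Their annotated transcripts of 1316 and 1263 bases were identical at 96.0% of 1262 aligned bases, and 16.1% of all stretches of 50 bases in the Lyz1 transcript occurred letter for letter in that of Lyz2. Fragments from such stretches cannot be assigned by sequence alone, so the low Lyz1 values are uncertain beside the high values of its copy. The 250 bases before each start are shown because they set the paralogues side by side where the transcripts are nearly the same. They come from RefSeq (GRCm38.p6; Lyz2 at chr10:117282273-117282522 and Lyz1 at chr10:117292869-117293118, minus strand), are written 5′ to 3′ in the direction of transcription, and were identical at 80.6% of 248 aligned bases.
Lyz2: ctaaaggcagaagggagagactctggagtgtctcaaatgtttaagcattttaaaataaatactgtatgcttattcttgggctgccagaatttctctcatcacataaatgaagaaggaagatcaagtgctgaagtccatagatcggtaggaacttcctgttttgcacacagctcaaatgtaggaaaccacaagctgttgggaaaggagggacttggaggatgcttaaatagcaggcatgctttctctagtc
Lyz1: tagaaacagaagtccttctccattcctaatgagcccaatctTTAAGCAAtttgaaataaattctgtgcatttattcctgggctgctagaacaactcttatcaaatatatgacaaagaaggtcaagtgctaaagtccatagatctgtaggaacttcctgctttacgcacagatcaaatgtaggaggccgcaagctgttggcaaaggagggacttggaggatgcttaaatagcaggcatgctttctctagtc
Capitals mark a match to the C/EBP pattern TTGCNNAA on either strand, where N is any base. This pattern was in 9.57% of 32841 such windows. Lyz1 held 1 match on the reverse strand, from 209 to 202 bases before the start, and neither window held GAGGAA, the core of the PU.1 site, which was in 23.3% of windows, or the TATA box pattern TATAAA, which was in 12.4%. A match describes these letters and is not a binding site.

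Lyz2 varied more between libraries than any other member on the log2(FPKM + 1) scale. The unstimulated levels were 56.5 FPKM for wild type and 71.8 FPKM for Nr4a1-/-. After anti-IgM it was 31.9, 115, 27.1 and 26.6 FPKM in wild-type libraries A, B, C and D (50.1 ± 43.3, SD, n = 4) and 53.0, 82.6, 15.8 and 17.4 FPKM in the Nr4a1-/- libraries A, B, C and D (42.2 ± 31.9, SD, n = 4). Library B was the highest of each genotype, and the groups overlapped in part. Nr4a1-/- libraries C and D lay below every stimulated wild-type library, and wild-type library B lay above every stimulated Nr4a1-/- one. The highest stimulated value was 7.27 times the lowest, a smaller ratio than that of Lyz1 (9.75). On the log2(FPKM + 1) scale used for every SD, correlation and change below, the SD of Lyz2 was 0.996 in wild type and 1.15 in Nr4a1-/-, against medians of 0.0480 and 0.0531 for the 2639 tested genes within 0.5 to 2 times its mean level. That is a spread 20.8 and 21.6 times the usual one, above that of 99.8% of these genes in each genotype. Relative depth of the B libraries was 1.06 in wild type, the highest of the 10, and 0.993 in Nr4a1-/-.

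Lyz1 gave 1.39 and 2.82 FPKM without stimulation. Stimulated wild-type libraries A, B, C and D held 0.480, 3.14, 0.9 and 1.09 FPKM (1.40 ± 1.19, SD, n = 4), and the Nr4a1-/- libraries held 2.01, 4.68, 1.15 and 0.920 FPKM (2.19 ± 1.73, SD, n = 4). Here too library B was the highest of each genotype and the groups overlapped. The ratio of Lyz2 to Lyz1 was not fixed: it ran from 13.7 in stimulated Nr4a1-/- library C to 66.5 in stimulated wild-type library A.

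Cd14 (chr18:36725064-36726815) followed Lyz2 from library to library. Without stimulation it was 7.76 FPKM in wild type and 11.6 FPKM in Nr4a1-/-. The wild-type libraries A, B, C and D after anti-IgM held 5.93, 17.6, 5.97 and 5.63 FPKM (8.79 ± 5.90, SD, n = 4) and the Nr4a1-/- libraries A, B, C and D held 9.17, 13.8, 3.80 and 5.05 FPKM (7.95 ± 4.52, SD, n = 4). Library B was again the highest of both genotypes and the groups overlapped. Over the 8 stimulated libraries the Pearson r of Lyz2 and Cd14 was 0.987 (Spearman rho 0.976; two-sided exact permutation p = 7.44e-05 for r, Benjamini-Hochberg adjusted over 28 member pairs 0.00208). Without the 2 B libraries, which lay farthest from the median of Lyz2, r was 0.957. With only 6 libraries its adjusted exact permutation p was 0.0583. After centring within genotype r was 0.988, with an adjusted exact permutation p of 0.122 when values were exchanged within a genotype only.

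**Figure D2:**
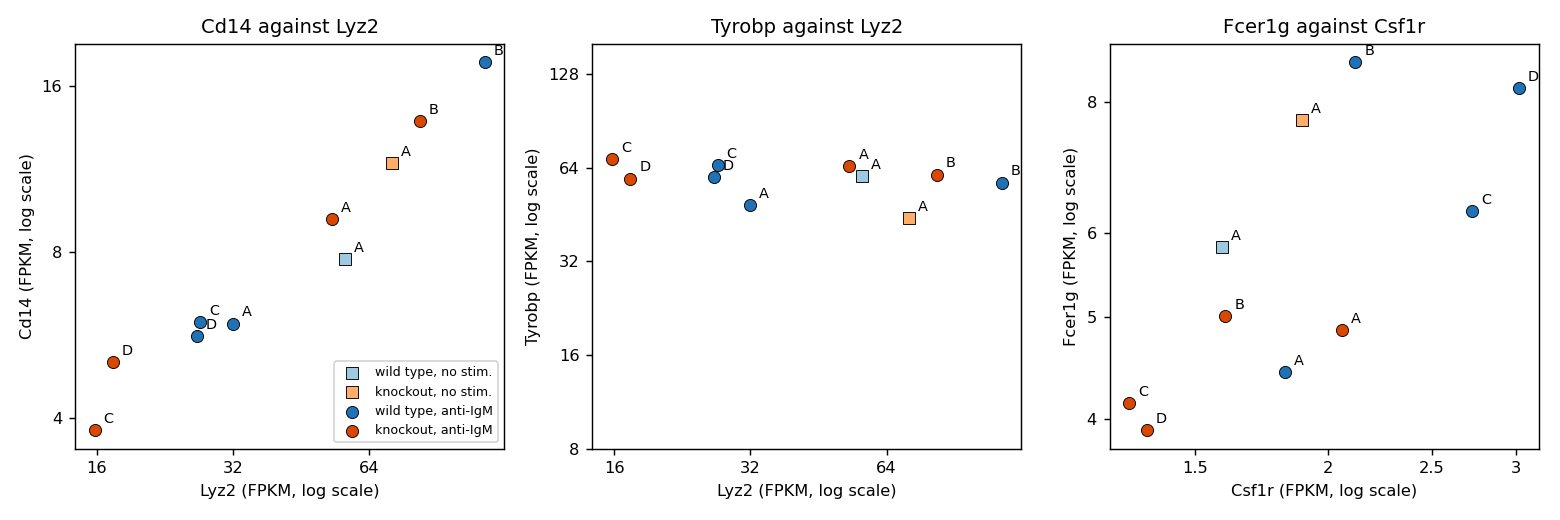
FPKM of 2 myeloid transcripts against each other (both axes logarithmic) in the 10 libraries; circles are anti-IgM libraries, squares unstimulated ones, blue wild type, orange Nr4a1-/-, and letters name the libraries. Cd14 was higher where Lyz2 was (r = 0.987 over the 8 anti-IgM libraries), Tyrobp was nearly level across the range of Lyz2 (r = -0.19), and Fcer1g tended to be higher where Csf1r was (r = 0.794).

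Ranked by Pearson r with Lyz2 over the same 8 libraries, Cd14 came 5th and Lyz1 109th of 10220 genes with varying values. Outside the members, the genes most like Lyz2 included Prg4 (r = 0.994), Fam129b (0.990), Serpinb2 (0.988) and Cxcl3 (0.986), and those most like Cd14 included Cxcl2 (0.993), Prg4 (0.987), Il1a (0.982) and Serpinb2 (0.979). Serpinb2 encodes a plasminogen activator inhibitor, Cxcl2 and Cxcl3 neutrophil-attracting chemokines, and Il1a an interleukin-1 cytokine. For Cxcl2 the stimulated wild-type libraries A, B, C and D held 13.4, 41.4, 14.7 and 11.95 FPKM and the Nr4a1-/- libraries 22.5, 35.4, 7.26 and 10.4 FPKM, an order close to that of Cd14. In all, 45 genes (0.440% of 10220) reached r of 0.9 with Lyz2 and 40 (0.391%) with Cd14. These correlations describe 8 libraries that share depth and handling, and genes are not independent replicates.

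**Figure D3:**
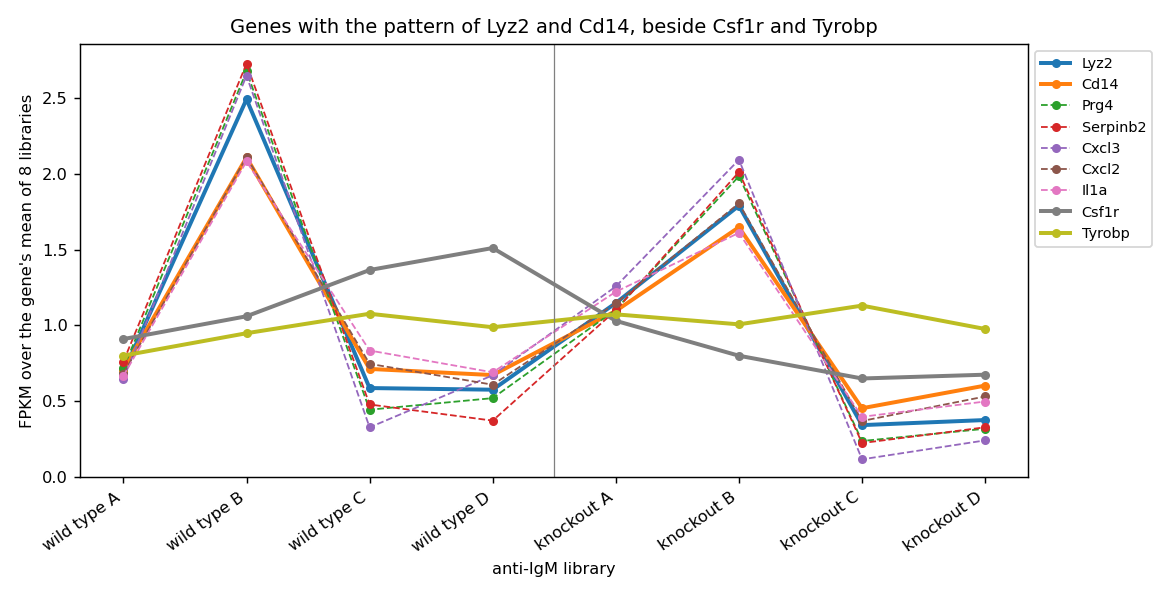
FPKM of each gene divided by its own mean over the 8 anti-IgM libraries (vertical axis, linear, from 0), by library; solid lines are members and dashed lines genes picked for their likeness to Lyz2 or Cd14. Lyz2, Cd14 and the dashed genes peak in library B of each genotype, where Csf1r and Tyrobp do not; Nr4a1-/- libraries C and D are low for Lyz2, Cd14, the dashed genes and Csf1r.

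Csf1r and Fcer1g had a lower r with Lyz2 than Cd14 had over the 8 stimulated libraries, although Fcer1g too was highest in library B of each genotype. Csf1r (chr18:61105572-61131139) stood at 1.59 and 1.89 FPKM in the unstimulated wild-type and Nr4a1-/- libraries. Its stimulated values were 1.82, 2.12, 2.73 and 3.02 FPKM in wild-type libraries A, B, C and D (2.42 ± 0.550, SD, n = 4) and 2.06, 1.6, 1.30 and 1.35 FPKM in the Nr4a1-/- libraries (1.58 ± 0.347, SD, n = 4). The groups overlapped only through wild-type library A and Nr4a1-/- library A. Fcer1g (chr1:171229572-171234349) stood at 5.82 and 7.68 FPKM without stimulation. The stimulated levels were 4.43, 8.72, 6.30 and 8.24 FPKM in wild-type libraries A, B, C and D (6.92 ± 1.96, SD, n = 4) and 4.86, 5.01, 4.14 and 3.90 FPKM in the Nr4a1-/- ones (4.48 ± 0.541, SD, n = 4). Wild-type library A lay inside the Nr4a1-/- range, and the other 3 lay above it.

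The r of Csf1r and Fcer1g was 0.794 over the 8 stimulated libraries (rho 0.833; two-sided exact permutation p = 0.0221, adjusted over 28 pairs 0.124), which missed the threshold. It was 0.569 after centring within genotype and 0.927 without wild-type library B, where the adjusted exact permutation p was 0.0333. Csf1r and Lyz2 gave r = 0.18 and Fcer1g and Lyz2 r = 0.49, neither past the threshold (adjusted exact permutation p = 0.912 and 0.647). Within the 4 libraries of a genotype, given as a description only, these were -0.45 and 0.484 in wild type and 0.723 and 0.963 in Nr4a1-/-. The genes most like Csf1r were Ddx58 (r = 0.986), which encodes the RNA sensor RIG-I, then Dynlt1b, Tmem65, Mbnl2 and Rab19 (0.960 to 0.969). Those most like Fcer1g included Ptpn22, Med27, Cxcl10 and Hpgds (0.953 to 0.969). The highest stimulated value was 1.28 to 2.48 times the lowest for the genes like Csf1r. For those named for Fcer1g it was 1.19 to 2.09 times.

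Tyrobp (chr7:30413782-30417582) had the smallest spread of the members on the log2 scale. It was 60.0 and 44.2 FPKM in the unstimulated wild-type and Nr4a1-/- libraries, 48.4, 57.4, 65.1 and 59.8 FPKM in wild-type anti-IgM libraries A, B, C and D (57.7 ± 6.96, SD, n = 4) and 64.9, 60.9, 68.4 and 59.05 FPKM in the Nr4a1-/- ones (63.3 ± 4.17, SD, n = 4). The highest stimulated value was 1.41 times the lowest, and the lowest of the 10 values was the unstimulated Nr4a1-/- library. Its SD was 0.176 and 0.0930, still 3.75 and 1.79 times the median of genes of like level; by that measure Csf1r (2.06 and 1.52) and S100a8 (2.85 and 1.53) spread less. The ratio of Lyz2 to Tyrobp therefore ran from 0.231 to 2.00, so the more abundant member differed between libraries. The genes most like Tyrobp were Tsc22d2 (r = 0.952), Tagap, Dad1, Ell2 and Ccdc115 (0.907 to 0.914). Their own highest stimulated value was only 1.07 (Dad1) to 1.26 (Ell2) times the lowest. Only 7 genes (0.0685%) reached r of 0.9 with Tyrobp, fewer than with any other member.

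S100a8 and S100a9 are neighbours on chromosome 3 (GRCm38.p6; S100a8 at chr3:90669071-90670034 and S100a9 at chr3:90692630-90695721). The 250 bases before each start are printed because the 2 genes encode the subunits of 1 complex. They come from RefSeq at chr3:90668821-90669070, plus strand, and chr3:90695722-90695971, minus strand, written 5′ to 3′ in the direction of transcription.
S100a8: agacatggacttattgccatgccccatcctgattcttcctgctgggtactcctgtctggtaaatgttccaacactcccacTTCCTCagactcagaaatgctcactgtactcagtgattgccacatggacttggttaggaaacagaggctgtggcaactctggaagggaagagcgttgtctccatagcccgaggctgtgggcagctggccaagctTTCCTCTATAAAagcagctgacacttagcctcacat
S100a9: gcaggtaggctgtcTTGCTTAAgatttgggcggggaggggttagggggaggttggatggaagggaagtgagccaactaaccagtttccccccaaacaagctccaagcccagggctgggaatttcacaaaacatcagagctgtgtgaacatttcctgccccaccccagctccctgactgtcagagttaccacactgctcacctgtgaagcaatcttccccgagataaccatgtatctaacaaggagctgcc
Capitals mark matches on either strand to the patterns GAGGAA, TTGCNNAA and TATAAA, whose shares of all windows are given above. S100a8 held 2 reverse-strand matches to GAGGAA, 170 to 165 and 36 to 31 bases before the start, and the latter directly adjoins TATAAA at 30 to 25 bases before it. S100a9 held 1 match to TTGCNNAA and none to the others.

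The calprotectin transcripts were the scarcest members and rest on few fragments. S100a8 was 2.68 and 1.22 FPKM in the unstimulated wild-type and Nr4a1-/- libraries, 1.48, 0.56, 1 and 1.6 FPKM in wild-type anti-IgM libraries A, B, C and D (1.16 ± 0.477, SD, n = 4) and 0.820, 0.410, 0.950 and 0.780 FPKM in the Nr4a1-/- ones (0.740 ± 0.232, SD, n = 4). S100a9 was 3.20 and 1.28 FPKM without stimulation, 1.73, 0.600, 0.630 and 2.03 FPKM in wild type (1.25 ± 0.741, SD, n = 4) and 2.06, 0.520, 0.730 and 0.730 FPKM in Nr4a1-/- (1.01 ± 0.707, SD, n = 4). The unstimulated wild-type library was the highest of the 10 for both, the B libraries were the lowest of each genotype, and the stimulated groups overlapped. S100a8 values were close to whole multiples of a step, which gives about 2 to 12 fragments per library, and S100a9 about 4 to 23. By counting error alone, 2 fragments have an exact 95% Poisson interval of 0.242 to 7.22, and 12 one of 6.20 to 21.0. Their r was 0.702 (rho 0.647; two-sided exact permutation p = 0.0719, adjusted 0.288), and it was 0.896 without Nr4a1-/- library A (adjusted exact permutation p = 0.0333). The genes most like S100a8 were S100pbp, Il12b, Atad3a, BC037704 and Rnf146 (r from 0.915 to 0.939), and those most like S100a9 were Ppp1r37, E130112N10Rik, Alg12, Wdr4 and Mllt1 (0.946 to 0.997).

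As a set, the 8 transcripts did not vary together. Of their 28 pairs, 15 had a positive r and 13 a negative one over the 8 stimulated libraries, with a median of 0.064. The pair of Lyz2 and Cd14 passed an adjusted exact permutation p of 0.05, and 5 pairs had an unadjusted one under it. Those others were Cd14 and Lyz1 (r = 0.852, adjusted exact permutation p = 0.102, r = 0.486 without the B libraries), Lyz2 and Lyz1 (r = 0.818, adjusted 0.102, and 0.414 without the B libraries), S100a8 and Lyz1 (r = -0.83, adjusted 0.102, and -0.51 without the B libraries) and Csf1r and Fcer1g. The adjusted exact permutation p of S100a8 and Lyz1 was 0.0385 after quantile normalization (r = -0.89) and 0.0472 without wild-type library D (r = -0.92). The relation of Lyz1 with Lyz2 and with Cd14 thus rested on the B libraries. In both genotypes library B held the highest Lyz2, Lyz1, Cd14 and Fcer1g and the lowest S100a8 and S100a9 of the 4 stimulated libraries.

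**Figure D4:**
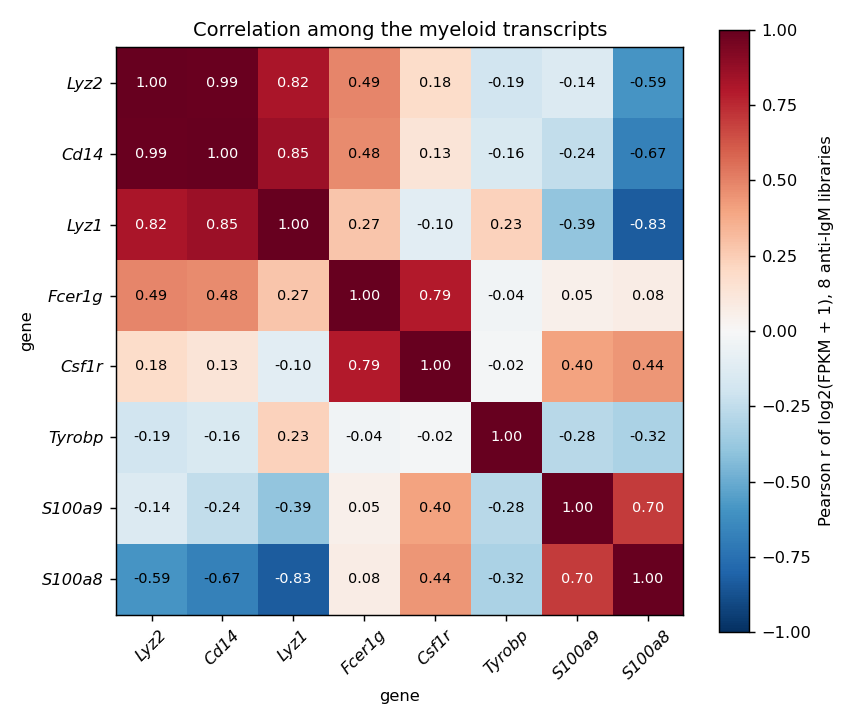
Pearson r of log2(FPKM + 1) for each pair of myeloid transcripts over the 8 anti-IgM libraries, from blue (-1) to red (1), with r written in each cell. Lyz2, Cd14 and Lyz1 form a red block with r of 0.818 to 0.987, Csf1r with Fcer1g and S100a8 with S100a9 form smaller ones, and Tyrobp is pale throughout.

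The mean log2 level of the 8 members over the stimulated libraries resembled Exoc1 (r = 0.965), Gbp3 (0.964), Ticam2 (0.953), Fcna (0.952) and Atp8a1 (0.951) most. The next 10 genes had r of 0.933 to 0.950: AK216694, C1qc, Arhgef11, Trf, Il1b, Il1a, Cxcl3, Wipf1, Clec4e and Ncapd3. The members did not share in this mean alike. Its r was 0.930 with Lyz2 and 0.901 with Cd14, but -0.369 with S100a8 and -0.0989 with Tyrobp. With the other members it ran from 0.0800 (S100a9) to 0.741 (Lyz1). Fcna and C1qc are macrophage products, a ficolin and a complement C1q chain. C1qc was highest in library B of both genotypes, at 7.13 and 6.31 FPKM, and so was C1qa, at 6.92 and 6.07 FPKM. Their sister chain C1qb was highest in library B of wild type (9.57 FPKM) but in library A of Nr4a1-/- (7.2, against 6.05 in B).

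The genotypes were compared after anti-IgM to ask whether residual myeloid RNA differed between the groups that the study set against each other. None of the 8 members was called by limma at a Benjamini-Hochberg adjusted p under 0.05, where 9.72% of all tested genes were (5.81% lower in Nr4a1-/- and 3.91% higher). At an unadjusted p under 0.05 there were 2 of 8, both lower in Nr4a1-/-, against 22.1% of all genes. No member had 4 and 4 libraries that did not overlap, which held for 15.5% of all genes. The median log2 difference, Nr4a1-/- minus wild type, was -0.21 over the members and -0.024 over all tested genes, and 2 of 8 members had a positive one.

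Csf1r differed by -0.40 (SE 0.132, 95% interval -0.70 to -0.11, limma adjusted p = 0.0962; two-sided exact permutation p = 0.0571). Fcer1g differed by -0.50 (SE 0.169, interval -0.88 to -0.12, limma adjusted p = 0.108; exact permutation p = 0.0857). The smallest p that 4 against 4 libraries allow is 0.0286. Leaving out wild-type library A moved Fcer1g to -0.67 with a limma adjusted p of 0.00992, a call, where 7.62% of genes were called; its adjusted p ranged from 0.00992 to 0.330 over 19 alternatives. That of Csf1r ranged from 0.0534 to 0.250 over 18, all above the threshold.

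For the other members the intervals were wider or closer to 0. Lyz2 differed by -0.27 with an interval of -1.65 to 1.10 and Cd14 by -0.11 with -1.05 to 0.82, so the data leave room for differences of 1 log2 unit in Lyz2 either way. Their sign turned when wild-type library B was left out (0.22 and 0.25). Lyz1 differed by 0.38 (-0.48 to 1.25), S100a8 by -0.29 (-0.68 to 0.088), S100a9 by -0.16 (-0.77 to 0.46) and Tyrobp by 0.14 (-0.048 to 0.32). Limma adjusted p-values of these 6 ran from 0.361 to 0.911.

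**Figure D5:**
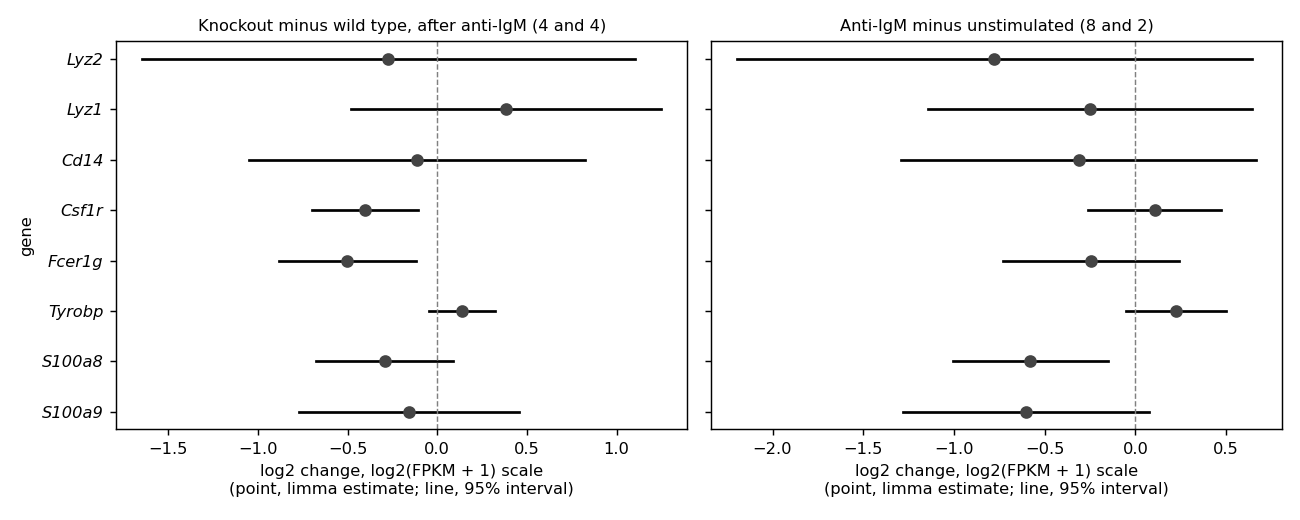
Log2 difference of each myeloid transcript between genotypes after anti-IgM (left; Nr4a1-/- minus wild type, 4 and 4 libraries) and between anti-IgM and unstimulated libraries (right; 8 and 2 libraries, genotype as a term), on the log2(FPKM + 1) scale. Points are limma estimates and lines 95% intervals that are not adjusted for the number of genes; on the left those of Csf1r and Fcer1g lie below 0, on the right that of S100a8.

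Stimulation was compared over 8 stimulated and 2 unstimulated libraries with the genotype in the model; calls needed a limma adjusted p under 0.05 and a change of 1 log2 unit or more in either direction. None of the 8 members was called, where 20.3% of all tested genes were (12.4% lower and 7.94% higher after anti-IgM). At any size the share of genes with an adjusted p under 0.05 was 78.9%, and 1 of 8 members was among them: S100a8, with a change of -0.58 (SE 0.193, limma adjusted p = 0.0167). That p stayed under 0.05 in 15 of 19 alternatives, and was 0.0597 with median-of-ratios scaling, 0.0689 with the letter as a block, 0.246 without the unstimulated wild-type library and 0.305 after quantile normalization, with changes of -0.44, -0.43, -0.36 and -0.24. S100a9 changed by -0.60 (limma adjusted p = 0.0936). The unstimulated wild-type library had more S100a8 (2.68 FPKM) and S100a9 (3.20) than the unstimulated Nr4a1-/- one (1.22 and 1.28), and on the log2 scale the changes were -0.80 and -0.96 in wild type and -0.36 and -0.24 in Nr4a1-/-.

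Lyz2 changed by -0.78 with stimulation (interval -2.19 to 0.64, limma adjusted p = 0.285), and only library B of each genotype was above its own unstimulated library. Without both B libraries, an alternative chosen after seeing the data, the change was -1.24 with a limma adjusted p of 0.0152, a call, where 20.7% of genes were called. Cd14 changed by -0.31, Lyz1 by -0.25, Fcer1g by -0.24, Csf1r by 0.11 and Tyrobp by 0.22, with limma adjusted p-values from 0.124 to 0.581. Set side by side without a test, the own changes of wild type and Nr4a1-/- were 0.39 and -0.17 for Csf1r, 0.18 and -0.67 for Fcer1g, and -0.065 and 0.51 for Tyrobp. All 4 stimulated wild-type libraries were above the unstimulated one in Csf1r and all 4 Nr4a1-/- ones in Tyrobp, while no Nr4a1-/- library was in Fcer1g. Over all tested genes the median change was -0.17 as deposited, -0.029 after rescaling each library to the same sum and -0.0022 after quantile normalization; that of the members was -0.28, -0.16 and 0.021. Against that shift, 8 of 13 B cell genes were called lower with stimulation, where 12.4% of all genes were, and none higher. Cd79a, the signalling chain of the antigen receptor, fell by 1.24 (limma adjusted p = 2.22e-09) and its partner Cd79b by 2.13 (limma adjusted p = 5.29e-11). Blk, Ebf1 and Cr2 of the same list rose, by 0.76, 0.33 and 0.28, short of a call.

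Marker lists of the cell types that such a preparation could still hold were read beside the members. Of 26 monocyte and macrophage genes, all in the table, 16 were tested. Between genotypes 1 was called higher in Nr4a1-/- (Axl, a receptor for apoptotic cells, 0.38, limma adjusted p = 0.00093) and 1 lower (Clec7a, the beta-glucan receptor Dectin-1, -0.62, limma adjusted p = 0.0450), against 9.72% of all genes. With stimulation only Axl was called, and it was higher (1.03, limma adjusted p = 6.6e-06), against 7.94% of all genes. The list's median difference between genotypes was -0.25. Its summed level was 104 to 111 FPKM without stimulation, 92.8 to 141 in stimulated wild type and 92.0 to 116 in stimulated Nr4a1-/-, so the groups overlapped, but only through wild-type library A: libraries B, C and D, at 130, 133 and 141, were above every stimulated Nr4a1-/- library. The chemokine receptors Ccr2 (0.010 to 0.190 FPKM) and Cx3cr1 (0 to 0.050), which mark blood monocytes, were near 0 in all 10 libraries, whereas C1qa (2.85 to 6.92), C1qb (3.25 to 9.57), Spic (4.68 to 11.5) and Hmox1 (17.5 to 37.2) were measured in each. C1qa and C1qb encode complement C1q chains, and Spic is a transcription factor of the splenic macrophages that recycle iron with the haem-degrading enzyme Hmox1.

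The tested markers did not share 1 pattern; those named here were picked after their values were seen, and no difference between their correlations was tested. Over the 8 stimulated libraries Itgam, the integrin CD11b, had r = 0.956 with Lyz2 and -0.016 with Csf1r, and Emr1, the antigen F4/80, had 0.882 and 0.521. By contrast Spic had -0.18 with Lyz2 and 0.844 with Csf1r, Hmox1 -0.050 and 0.811, Cd5l 0.323 and 0.815, and Slc40a1, the iron exporter ferroportin, -0.16 and 0.795. The C1q genes had 0.713 to 0.852 with Lyz2 and 0.595 to 0.770 with Csf1r. Axl (-0.041 with Lyz2 and -0.71 with Csf1r) and Ms4a6c (0.231 and -0.67) followed neither. Over the 16 genes the median r was 0.277 with Lyz2, 0.644 with Csf1r, 0.680 with Fcer1g and 0.113 with Tyrobp. The part that any of these cells have in the values of the members was not tested.

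Most neutrophil genes were at or near 0. The table listed 16 of 22, and 14 of these stayed under 1 FPKM in every library: the granule genes Camp (at most 0.110 FPKM), Ltf (0.090), Elane (0.060), Mpo (0.020) and Mmp8 (0.020) were at 0 in most libraries, and the receptor Csf3r was between 0.1 and 0.260. The 2 tested were Il1b, an interleukin-1 cytokine, with 12.01 to 32.4 FPKM, and 1100001G20Rik (Wfdc21). The latter was called lower with stimulation (-2.22, limma adjusted p = 3.35e-05), against 12.4% of all genes. Il1b had r = 0.916 with Lyz2. The 6 mast cell and basophil genes found of 8 were all under 1 FPKM throughout and summed to at most 0.310 FPKM. Among them Fcer1a, the IgE receptor chain that pairs with Fcer1g on those cells, was at most 0.050 FPKM.

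The lymphoid lists were low in most of their genes. Among the 13 T cell genes listed, 10 stayed under 1 FPKM, with Cd3e at 0 to 0.1, and of 9 NK cell genes 6 did, with Gzma at 0 to 0.190. The 3 T cell genes tested were all called higher with stimulation, against 7.94% of all genes: Il7r, an interleukin receptor chain (2.37), Cd5, a receptor of T cells and some B cells (1.97), and the kinase Lck (1.36). Of these, 2 were also called higher in Nr4a1-/-, against 3.91%: Lck (0.48, limma adjusted p = 3.15e-05) and Cd5 (0.24, 0.0336). Of 2 NK cell genes tested, Klrd1, the receptor chain CD94, was called lower in Nr4a1-/- (-0.59, limma adjusted p = 0.0456), against 5.81% of all genes.

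Erythroid and platelet RNA was measured in every library, with Hba-a2 and Hbb-bs, which encode globin chains, at 3.2 to 60.4 and 1.82 to 36.7 FPKM, and the platelet chemokines Ppbp and Pf4 at 1.89 to 11.98 and 0.920 to 10.1 FPKM. The summed erythroid list was 52.1 to 133 FPKM without stimulation and 10.6 to 70.2 after it. All 4 tested erythroid genes and 3 of 4 tested platelet genes were called lower with stimulation, among them Pf4 (-1.14, limma adjusted p = 0.0045), against 12.4% of all genes. Between genotypes no erythroid gene was called and Ppbp was called lower in Nr4a1-/- (-0.53, limma adjusted p = 0.0496), against 5.81% of all genes. Of 5 dendritic cell genes tested, 2 were called lower in Nr4a1-/- (Flt3, -0.44, limma adjusted p = 0.00488, and Ccr7, -0.21, 0.00964) and 1 higher (Zbtb46, 0.39, 0.00332), where 5.81% of all genes were lower and 3.91% higher. With stimulation only Zbtb46 of these was called, and it was higher (1.48, limma adjusted p = 6.0e-09), against 7.94% of all genes. Of 2 stromal and endothelial genes tested, Glycam1, a mucin of lymph node venules, was called lower in Nr4a1-/- (-2.37, limma adjusted p = 8.84e-05), against 5.81% of all genes. Pecam1 was called lower with stimulation (-3.13, limma adjusted p = 5.78e-11), against 12.4%. The part of these cells in the values of the members was not tested.

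The signalling partners of the members were examined last. Of 13 genes that work with Fcer1g and Tyrobp, 5 were tested. Of these, 1 was called lower in Nr4a1-/- (the kinase Lyn, -0.20, limma adjusted p = 0.0071), against 5.81% of all genes. With stimulation 3 were called lower, against 12.4%: Syk (-2.22), the kinase that binds the adaptors' motifs, the inhibitory receptor Pirb (-1.63) and Lyn (-1.37). Syk stood at 40.2 to 231 FPKM and Lyn at 45.8 to 142 FPKM over the 10 libraries. Which cells these transcripts came from was not tested. Of the listed receptors that rely on adaptors of this kind, Fcgr1 (at most 0.110 FPKM), Trem2 (0.1), Clec5a (0.080) and Oscar (0.060) were near 0, and Trem1 (0.050 to 0.3), Klrk1 (0.15 to 0.570) and Fcgr4 (0.160 to 0.510) were low. The Fc receptor Fcgr3 had 0.5 to 1.23 FPKM, a level like that of S100a8, and Clec4e, the receptor Mincle, had 0.820 to 4.74 FPKM and r = 0.968 with Lyz2. Of 8 genes around Csf1r, 6 were tested. Csf2rb, the shared chain of receptors for GM-CSF, was called lower in Nr4a1-/- (-0.49, limma adjusted p = 0.00586), against 5.81% of all genes. Cebpb, a transcription factor of myeloid genes, was called higher with stimulation (1.04, limma adjusted p = 2.16e-06), against 7.94%. Spi1, which encodes PU.1, had r = 0.925 with Csf1r, at 19.5 to 43.8 FPKM over the 10 libraries. Of 6 genes that act with Cd14 and calprotectin, 4 were tested and none was called in either comparison, where 9.72% (genotype) and 20.3% (stimulation) of all genes were. Tlr2, a Toll-like receptor, had r = 0.885 with Lyz2, and Tlr4, the receptor that Cd14 serves, 0.450.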

How the data were processed

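The authors deposited FPKM per gene; per the submitters' processing notes STAR 2.4, RSEM 1.2.14 and build mm10 were used, while annotation, strand setting and filters are not given in the sources used here. The library kit keeps strand, per the labels' protocols. No absolute depth can be had from FPKM, so relative depth came from genes at 1 fragment, and a gene's fragments from its smallest step (tested on simulated data: 99.7% recovered, 0.333% falsely). Values were taken as log2(FPKM + 1). Those 10225 genes averaging 1 FPKM or more were fitted with limma 3.58.1 (R 4.3.3; eBayes with trend), two-sided, Benjamini-Hochberg over all of them. On simulated data for the genotype comparison (10225 genes) 95.5% of 200 genes changed by 1 log2 unit were called, with 8 false calls. Correlations used all permutations of 8 libraries (scipy 1.17.1). Transcripts came from GENCODE M21, upstream sequence and loci from RefSeq.

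Named genes are the members, the 5 genes most like each member and 15 most like their mean, up to 3 most abundant and 4 most changed called genes per list, and 4 B cell genes; others named (such as neutrophil, receptor and Cxcl2-like genes given by range or r) were picked after their values were seen. Some genes that this rule names are not reported here. The members and lists were chosen with earlier results of these data known. Older symbols were matched through RefSeq. Whether the letters pair the libraries is open. Deviations of same-lettered libraries correlated at -0.021, 0.045, 0.0074 and -0.12, which cannot exclude that they were prepared together. Library B was the highest in Lyz2, Lyz1, Cd14 and Fcer1g and the lowest in S100a8 and S100a9 in both genotypes. In Csf1r and Tyrobp it was neither. Alternatives covered pseudocounts, filters, scalings, eBayes without trend, the letter as a block, all 10 libraries, centring, and leaving out libraries.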

Additional observations from a re-analysis of the deposited data

Results flagged for a closer look

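Within groups of 4 stimulated libraries, the gap of the highest or lowest library to its neighbour was set against the range of the group. Of 16 groups examined 3 had a library that stood apart, where chance would give about 0.8 were the groups independent and their FPKM normally distributed. The gaps were taken in FPKM, not on the log2 scale, and the distribution was not tested. The groups are not independent: Lyz2 and Cd14 stood apart in the same library and correlated at r = 0.987, so these 2 are not separate events. Lyz2 in wild-type library B was at 114.95 FPKM, above the next library at 31.9, and Cd14 in the same library was at 17.64 FPKM, above the next at 5.97. S100a9 in Nr4a1-/- library A was at 2.06 FPKM, above the next at 0.730.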

How the results depend on the processing

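Of the genotype comparison, 0 members were called in 18 of 19 alternatives; leaving out 1 library at a time gave 0 to 1. Of the stimulation comparison, 0 were called in 19 of 20, and 1 without both B libraries. The count of member pairs past the threshold was 1; it was 2 after quantile normalization, 0 with values centred within genotype, 0 without both B libraries (only 6 libraries), and 1 to 2 with 1 library left out. The letter as a replicate block called 0 members in both comparisons, and with it Csf1r and Fcer1g had limma adjusted p-values of 0.204 and 0.132; no library was most like the one of its own letter.

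Signs turned for these results, none of them called. With 1 library left out at a time, r of Lyz2 ranged from -0.46 to 0.048 with Tyrobp and from -0.063 to 0.383 with Csf1r, turning without Nr4a1-/- library C and, for Csf1r, also without D (-0.0068). The genotype difference ranged from -0.70 to 0.22 for Lyz2 and from -0.40 to 0.25 for Cd14, both turning without wild-type library B or Nr4a1-/- library C (0.072 and 0.14) or D (0.029 for each), and from -0.38 to 0.0058 for S100a9, turning without wild-type library D. Over all 10 libraries that of Cd14 was 0.014. The stimulation change ranged from -0.17 (without the unstimulated wild-type library) to 0.39 for Csf1r, and to 0.18, -0.065 and 0.0049 for Fcer1g, Tyrobp and Cd14 without the unstimulated Nr4a1-/- library, from -0.67, 0.51 and -0.63 without the wild-type one. Quantile normalization gave 0.13 for Fcer1g and 0.12 for Lyz1. The cause of these moves was not tested. Few fragments limit S100a8 and S100a9, and 1 unstimulated library per genotype limits every stimulation value.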
